A study of Mus musculus with 2 samples.

Results

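The cells described here are 747 macrophages of the normal mouse pancreas, chosen from single-cell RNA sequencing by the transcripts of Marco, Cd5l, Timd4, Fcna and Cxcl13. They were 747 of 4616 retained cells in the normal library, or 16.2% (exact 95% interval 15.1 to 17.3%), and 747 of 7189 retained cells in the series. A retained cell had at least 500 genes, at least 1000 UMIs (counted transcript molecules) and at most 10% mitochondrial UMIs. Per 10000 UMIs, a member had a sum of at least 50 over Cd68, Csf1r, C1qa, C1qb, Lyz2, Tyrobp and Fcer1g. It had a sum under 50 over the collagen genes Col1a1, Col1a2 and Col3a1 with Dcn, and under 20 over the endothelial genes Pecam1, Cdh5, Kdr and Flt1. Its selection sum, over Marco, Cd5l, Timd4, Fcna and Cxcl13, was at least 10. In the normal library 1389 cells met all but the last condition, and 747 of them (53.8%, interval 51.1 to 56.4%) met that too. The remaining 642 are called the other macrophage-gated cells.

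The series holds 2 libraries made with 10x Genomics 3′ chemistry, 1 per group, from mice of the genotype Rosa26-mTmG;Fabp4-Cre, in which a cell that has expressed Cre switches from red to green fluorescence. The tumour library held GFP+ PDPN+ cells from pancreatic tumours grown from FC1245 cells, which were placed in the pancreas at 8 weeks of age and harvested 21 days later. The normal library held GFP+ cells from pancreata of mice aged 6 to 9 weeks, not sorted on PDPN. Digestion also differed, with Collagenase IV, Dispase, DNase and trypsin for tumours and Pronase, Collagenase P and DNase for normal pancreas. Tissue, gate and digestion cannot be told apart. The label names the normal cells as pancreatic stellate cells, yet the Fabp4 promoter that drives Cre is also active in macrophages and endothelial cells, and 1389 normal cells passed the macrophage gate. With 1 library per group and cells that share their source, no test between groups was possible. All intervals cover counting error only.

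Macrophages of healthy organs fall into kinds that differ by niche. Those seeded before or around birth and kept by self-renewal often carry Timd4, a receptor for phosphatidylserine on dying cells, and take up debris and microbes through scavenger and complement receptors. Macrophages that line vessels carry Lyve1 and Folr2, and those of the peritoneal and pleural cavities depend on the transcription factor Gata6. Monocyte-derived macrophages of tissues more often show Ccr2, Cx3cr1 and MHC class II genes. The genes of the rule are scavenger and innate recognition genes of tissue macrophages. Marco is a scavenger receptor for bacteria and particles. Cd5l encodes a secreted protein that modulates lipid metabolism and inflammation in macrophages. Fcna encodes ficolin A, a lectin that starts complement activation, and Cxcl13 the chemokine that draws B cells. Vsig4, a complement receptor, and Prg4, which encodes lubricin, are named as further markers of these cells but did not enter the rule.

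Fcna, rather than Marco or Cd5l, marked nearly all of the selected macrophages, so that the data went partly against the name given to them. A UMI of Fcna was present in 745 of 747 cells and a UMI of Timd4 in 682. Cxcl13 was found in 287 cells, Cd5l in 209 and Marco in 182. Fcna gave 43.3% of the UMIs behind the selection sum, Cxcl13 28.7%, Timd4 11.97%, Marco 11.7% and Cd5l 4.43%. Fcna and Timd4 alone brought 734 cells (98.3%) to the threshold of 10. Marco, Cd5l and Cxcl13 alone brought 240 cells (32.1%) there, and 389 cells (52.1%) had no UMI of any of these 3 genes. Only 102 cells (13.7%) had a UMI of all 5. The cells are therefore called Fcna Timd4 macrophages below, with Marco, Cd5l and Cxcl13 as genes of a subset. All 5 are genes of the rule, so their presence was partly selected, and the name states which of them carried the selection.

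The 7 marker genes lie on 6 chromosomes in GENCODE vM21, which annotates GRCm38 (called mm10 in the files), and all are protein-coding. Fcna spans chr2:25624666-25628030 on the minus strand and Timd4 chr11:46810800-46844332 on the plus strand. Marco spans chr1:120474538-120505024 and Prg4 chr1:150449412-150466165, both on the minus strand. Cd5l spans chr3:87357881-87371073 and Cxcl13 chr5:95956951-95961068, both on the plus strand, and Vsig4 chrX:96247203-96293438 on the minus strand. RefSeq promoters (GRCm38.p6, 250 bases before to 50 after the start) were used for Marco, Timd4, Cd5l, Fcna, Vsig4 and Cxcl13. These 6 were searched on both strands for the MAF motif TGCTGA, whose reverse complement is TCAGCA, since MAF is a transcription factor of tissue macrophages. A match stood in 5 of the 6 promoters, against 19.5% of all 32851 promoters in the table, and in 4 of the 6 it lay before the start site. Maf was at 1264 CPM (counts per 1000000 of the summed UMIs) in the Fcna Timd4 macrophages, against 1121 CPM in the other macrophage-gated cells. Within the members its level was uneven over the clusters described below. In clusters 2, 3 and 6, where Cd5l and Cxcl13 were higher, Maf was at 773, 892 and 277 CPM. In clusters 1, 4 and 5 it was at 1898, 1175 and 2478 CPM. Stretches around these matches are printed 5′ to 3′ on the gene's strand, with the motif in capitals, to show the letters these 4 genes of the rule share:

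Fcna, chr2:25628029-25628111, minus strand: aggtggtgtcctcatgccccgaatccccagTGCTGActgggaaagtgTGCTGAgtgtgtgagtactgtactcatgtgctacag
Timd4, chr11:46810619-46810790, plus strand: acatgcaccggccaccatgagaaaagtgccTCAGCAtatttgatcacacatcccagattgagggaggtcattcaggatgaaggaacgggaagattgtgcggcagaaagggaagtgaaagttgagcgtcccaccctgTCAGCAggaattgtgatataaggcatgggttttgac
Cd5l, chr3:87357797-87357870, plus strand: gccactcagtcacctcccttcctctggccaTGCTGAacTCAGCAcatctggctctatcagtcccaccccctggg
Cxcl13, chr5:95956782-95956847, plus strand: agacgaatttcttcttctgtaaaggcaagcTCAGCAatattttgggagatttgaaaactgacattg

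In the Cd5l stretch 2 copies face each other 2 bases apart, as TGCTGANNTCAGCA. That arrangement, looked for after the stretch was seen, occurred in 2 of the 32851 promoters. The Marco promoter held no TGCTGA, and the promoters of Timd4 and Cxcl13 held AGGTCA, a motif of nuclear receptors, which 16.3% of all promoters hold. None of the 6 held AGATAA, bound by GATA factors (11.2% of all promoters), or GAGGAAGT, the core bound by PU.1 (3.20%). The matches are letters in these windows and were not tested as binding sites.

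The macrophage gate fixed part of the macrophage identity of both groups. Their summed counts came to 7065077 UMIs, with a median of 8844 UMIs and 2765 genes per cell, and those of the other macrophage-gated cells to 4932526 UMIs, with medians of 7159 UMIs and 2386 genes. Adgre1, the F4/80 antigen, which entered no part of the rule, was found in 80.2% of the Fcna Timd4 macrophages and 82.9% of the others. C1qa, a complement subunit, and Csf1r, the receptor for the growth factor that keeps macrophages alive, are genes of the gate, so that their presence was selected. C1qa was found in all 747 Fcna Timd4 macrophages and in 89.6% of the others, and Csf1r in 98.3% against 95.8%. Low sums of fibroblast and endothelial markers were set in part by the rule, which used 4 genes of each list. The 7 fibroblast markers summed to 60.2 CPM in the Fcna Timd4 macrophages and 81.3 CPM in the others, against 29844 CPM in the library's fibroblast-gated cells. The 7 endothelial markers summed to 46.6 CPM and 57.6 CPM, against 14466 CPM in endothelial-gated cells. The T and NK list summed to 0.142 CPM, with Cd3e, Cd3g, Nkg7, Gzma and Ncr1 at 0, and the mesothelial list to 0.708 CPM, with Msln, Upk3b, Upk1b and Lrrn4 at 0. The 7 pericyte and smooth muscle markers summed to 4.67 CPM in the Fcna Timd4 macrophages and 125.5 CPM in the others. The 326 UMIs of the neutrophil gene S100a9 in the others all came from 1 cell, and the members had none. Scrublet marked 112 of the 4616 normal cells as doublets (2.43%), 1 of them a member.

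The selection sum was a range with no gap at the threshold. The 5 members just inside had sums of 10.07 to 10.12, and the 5 cells just outside 9.79 to 9.95. There were 20 cells from 10 to under 11 and 31 cells from 9 to under 10. Members had a median of 26 UMIs of the 5 genes, and 19 of them had under 5, with a lowest count of 2. Median sums were 30.5 per 10000 in the members and 1.25 in the other macrophage-gated cells.

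**Figure D1:**
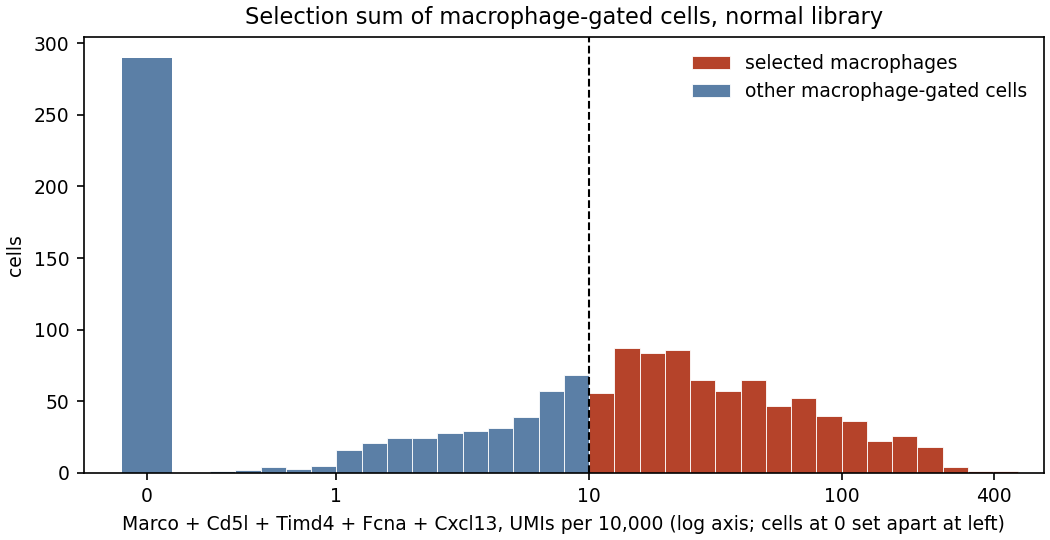
Number of macrophage-gated cells of the normal library (vertical axis) by their sum of Marco, Cd5l, Timd4, Fcna and Cxcl13 in UMIs per 10000 (horizontal log axis, with cells at 0 set apart at the left). Red bars are the 747 selected cells and blue bars the 642 others, 290 of which were at 0, and the dashed line is the threshold of 10, across which the counts run on without a gap.

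The levels of the rule's own genes along this range follow from how the range was made and are given as a description. The normal macrophage-gated cells were placed in 7 ranges of the sum, holding 290, 188, 164, 227, 273, 139 and 108 cells. From the range at 0 to the range at 100 and over, Fcna stood at 0, 107, 484, 1074, 2344, 3755 and 3551 CPM. Cxcl13 stood at 0, 6.75, 4.06, 9.96, 165, 1617 and 7688 CPM in the same ranges, and Marco at 0, 6.75, 4.06, 6.09, 73.0, 517 and 3311 CPM. The 227 members in the range from 10 to 20 were carried by Fcna and Timd4, at 1074 and 379 CPM, while cells rich in Cxcl13 or Marco fall in the higher ranges by the rule itself.

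Genes outside the rule also ran along this range, in several patterns. Vsig4 stood at 0.900, 11.5, 35.8, 48.7, 369, 920 and 1140 CPM. Lyve1, the hyaluronan receptor of vessel-associated macrophages, stood at 69.3, 630, 1392, 1852, 2192, 1936 and 1958 CPM, and so was near its highest level from a sum of 10 upward. Mrc1, the mannose receptor, stood at 944, 2004, 2620, 2885, 1979, 807 and 678 CPM, and Folr2, a folate receptor, at 152, 831, 1509, 1820, 1670, 959 and 871 CPM. Both were highest in the range from 10 to 20 and lower at each end.

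The MHC class II gene H2-Aa stood at 7593, 4454, 2445, 1577, 747, 731 and 963 CPM, with its highest level where no selection gene was found. Ccr2, the receptor by which monocytes leave the marrow, stood at 874, 306, 61.8, 55.9, 35.9, 1.30 and 0.866 CPM. The cells just under the threshold, from 5 to 10, were closer to the members from 10 to 20 in these genes than to the cells at 0.

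**Figure D2:**
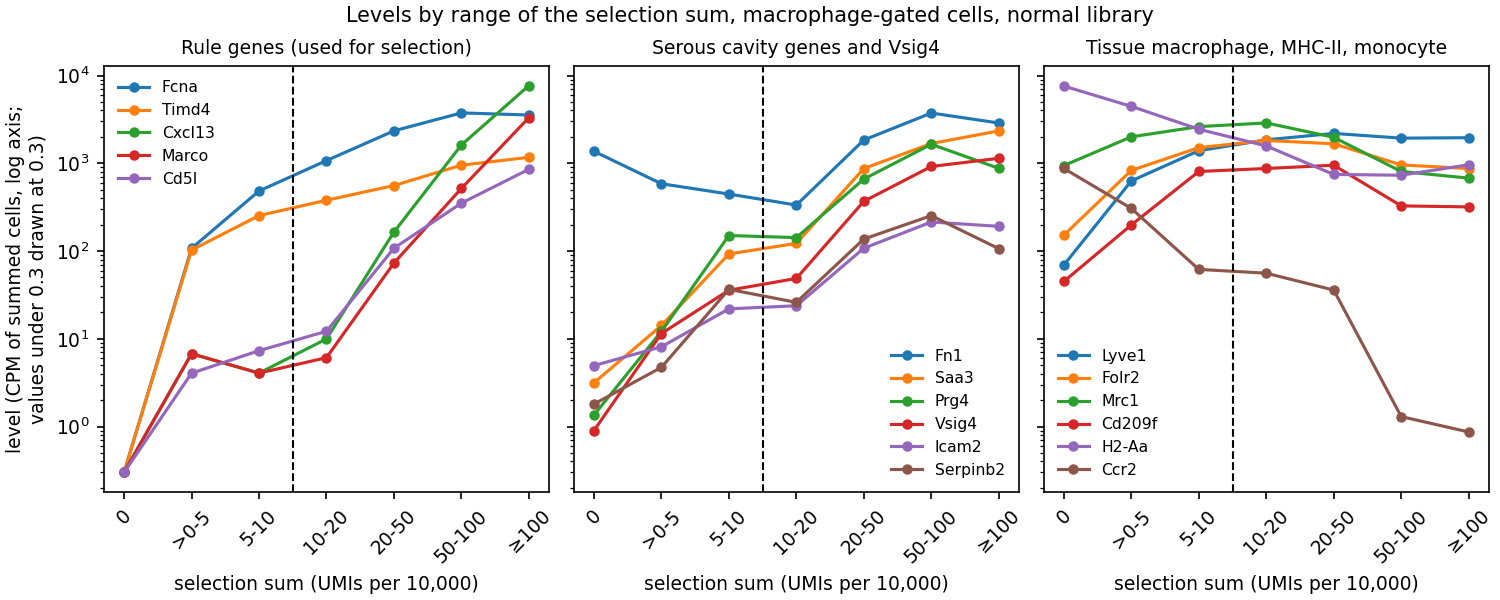
Level of each gene in CPM of the summed cells (vertical log axis, values under 0.3 drawn at 0.3) in 7 ranges of the selection sum in UMIs per 10000 (horizontal axis), for macrophage-gated cells of the normal library, with the dashed line at the threshold of 10. The left panel shows genes that make up the range itself, so its order follows from the rule. Mrc1 and Folr2 peak between 10 and 20, and Ccr2 and H2-Aa are highest at 0.

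To see which markers occurred in the same cells, each cell was thinned at random to 4300 UMIs, which left out 74 members and 103 others below that depth. Each group, and each part of a group, was thinned in its own random draw, so that shares of a group and of its parts can differ by the draw. Among 673 thinned members, Fcna was found in 99.6% of cells (exact interval 98.7 to 99.9%) and Timd4 in 85.1% (82.2 to 87.7%). Cxcl13 was found in 36.8% (33.2 to 40.6%), Prg4 in 31.8% (28.3 to 35.5%), Vsig4 in 30.5% (27.0 to 34.1%), Cd5l in 22.7% (19.6 to 26.1%) and Marco in 20.7% (17.7 to 23.9%). The unthinned shares of Marco, Cd5l and Timd4 were 24.4%, 28.0% and 91.3%. In the 539 thinned others the shares were 35.8% for Fcna and 28.6% for Timd4, and 0.742% for Marco, 1.30% for Cd5l and 1.30% for Cxcl13. In fibroblast-gated cells (median 9034 UMIs before thinning), which should lack these genes, the shares were 0.564% for Marco, 0.211% for Cd5l and 1.55% for Cxcl13. The Cxcl13 share of the others was below that level and is read as background. For Cd5l it was above, and in the others with a sum under 10 over Cd209f, Folr2 and Mrc1 it was 2.84% (0.929 to 6.51%), against an upper limit of 0.617% in fibroblast-gated cells. Fcna and Timd4 in the others were above the fibroblast-gated shares of 2.75% and 0.493%. In the 363 thinned others with at least 10 over Cd209f, Folr2 and Mrc1, Fcna was found in 48.2% and Timd4 in 42.7%. Neither gene was confined to the members.

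The markers occurred together rather than being spread evenly over the members. Of the thinned members, 256 (38.0%) had exactly 2 of the 7 markers, and 79, 86, 85 and 77 had 3, 4, 5 and 6, with 22 cells at 7. Among the 139 with Marco, Cd5l was found in 68.3%, against 10.9% of the 534 without Marco. Cxcl13 was found in 77.0% of cells with Marco and 26.4% of cells without it. Prg4 was found in 65.5% against 23.0%, and Vsig4 in 53.2% against 24.5%. Vsig4 and Prg4, which the rule did not use, were found mainly in cells with Cxcl13. Cxcl13 was present in 65.9% of the 205 cells with Vsig4, against 24.15% of cells without it. For the 214 cells with Prg4 these shares were 66.8% and 22.9%. Marco was present in 36.1% of cells with Vsig4 and 42.5% of cells with Prg4. Marco, Cd5l and Cxcl13 are genes of the rule, so their joint presence was seen in cells chosen on a sum that holds them. Across the 747 cells, which share 1 library, the Pearson correlation of log levels of Marco was 0.66 with Cd5l, 0.43 with Cxcl13 and -0.46 with Folr2.

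**Figure D3:**
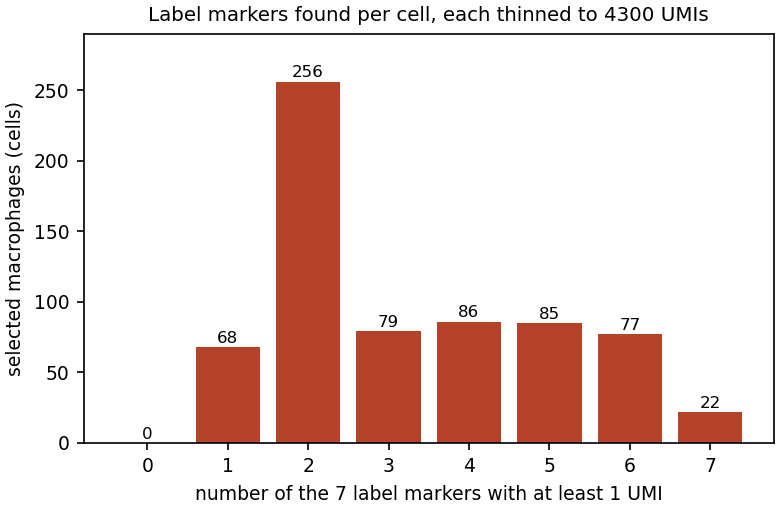
Number of selected macrophages (vertical axis) by how many of the markers Marco, Timd4, Cd5l, Fcna, Vsig4, Cxcl13 and Prg4 had at least 1 UMI (horizontal axis), after each cell was thinned to 4300 UMIs. The tallest bar is 256 cells with 2 markers, and 77 to 86 cells stand at each of 3, 4, 5 and 6.

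Clustering of the members alone gave 6 clusters, which are called here by number and leading genes. Clusters 2 and 3 (227 and 93 cells, together 320 or 42.8%) held most of Marco, Cd5l, Cxcl13, Vsig4 and Prg4. Cluster 6 was small, with 27 cells (3.61%). Clusters 1, 4 and 5 (268, 71 and 61 cells, together 400 or 53.5%) had Fcna and Timd4 with the genes of vessel-associated macrophages. Clusters 2 and 3 merged into 1 cluster of 316 to 323 cells at a resolution of 0.3, without Xist and the Y-linked genes, and without the 5 selection genes, but stayed apart at a resolution of 1. They are described together. Cluster 6 kept 26 or 27 of its 27 cells in every one of the 4 alternative clusterings. Grouping the clusters this way was done after seeing their levels, and a cluster's own leading genes are a description.

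Clusters 2 and 3 carried the scavenger, chemokine and complement receptor genes of the label, and clusters 1, 4 and 5 had Fcna and Timd4 without most of them. Cxcl13 was at 3127 CPM in clusters 2 and 3 and 145 CPM in clusters 1, 4 and 5, and Marco at 1245 CPM and 24.2 CPM. Vsig4 was found in 56.6% of cells in clusters 2 and 3 and 11.5% in clusters 1, 4 and 5, and Cd5l in 53.1% and 3.25%. Fcna was found in nearly all cells of both, with 3401 CPM in clusters 2 and 3 and 1747 CPM in clusters 1, 4 and 5. Timd4 was at 952 CPM in clusters 2 and 3, against 425 CPM in clusters 1, 4 and 5. Folr2 went the other way, with 929 CPM in clusters 2 and 3 against 2091 CPM in clusters 1, 4 and 5, and so did the C-type lectin gene Cd209f, with 254 CPM against 1229 CPM. Lyve1 did not follow that split, with 2163 CPM in clusters 2 and 3 and 2057 CPM in clusters 1, 4 and 5.

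Several other genes separated clusters 2 and 3. Fn1, which encodes fibronectin, was at 3192 CPM there, against 109 CPM in clusters 1, 4 and 5. Hal, the histidine-degrading enzyme histidase, was at 179.5 CPM, against 1.23 CPM. Slc7a2, a transporter of cationic amino acids such as arginine, was at 193 CPM, against 8.28 CPM. Itgal, the alpha chain of the integrin LFA-1, was at 79.0 CPM, against 0.306 CPM. Id3, a regulator of tissue macrophage identity that is best known in Kupffer cells, was at 668 CPM, against 71.1 CPM. The nuclear receptor Nr1h3 (LXR alpha) was at 54.5 CPM, against 7.05 CPM. Cluster 3 held the highest level of Marco, 3347 CPM against 282 CPM in the other members, and of its cells with sex-linked UMIs 74 had Xist only and 13 a Y-linked transcript only.

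Cluster 6 was led by Ltbp1, Slpi, Arg1, Alox15 and Gata6, and it held nearly the whole list of serous cavity macrophage genes. Its 18-gene serous cavity sum was 31207 CPM, against 5331 to 6339 CPM in clusters 3 and 2, and 72.8 to 289 CPM in clusters 5, 4 and 1. Saa3, an acute phase protein, was at 10080 CPM in cluster 6, 1129 CPM in clusters 2 and 3 and 39.2 CPM in clusters 1, 4 and 5. Prg4 was at 5396 CPM in cluster 6, 991 CPM in clusters 2 and 3 and 30.04 CPM in clusters 1, 4 and 5. Both were found in all 27 cells of cluster 6. Serpinb2, an inhibitor of plasminogen activators, and the lipoxygenase Alox15 were also in all 27 cells, at 1347 and 1842 CPM, against 115 and 33.2 CPM in clusters 2 and 3. Gata6, the factor that defines peritoneal macrophages, was found in 59.3% of cluster 6 cells and 0.625% of cells in clusters 2 and 3. Ltbp1, which binds latent TGF-beta, was at 342 CPM in cluster 6, against 0.874 CPM in clusters 2 and 3.

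Many vessel-associated genes, though not all, were low in the same cells. The sum over that list of 15 genes was 7665 CPM in cluster 6, against 11915 CPM in cluster 2 and 9909 CPM in cluster 3. Lyve1 was at 204 CPM in cluster 6, against 2163 CPM in clusters 2 and 3, and Folr2 at 113 CPM against 929 CPM. Among those that went the other way, Pf4 was at 6146 CPM in cluster 6, against 3862 and 3620 CPM in clusters 2 and 3. Igf1 was at 220.5 CPM, against 70.2 and 130.1 CPM. Only 1 of the 27 cells reached a sum of 10 over Cd209f, Folr2 and Mrc1, against 669 of all 747 members. In Marco, at 1258 CPM, and Cd5l, at 868 CPM, cluster 6 was nearer to clusters 2 and 3, at 1245 and 431 CPM, than to clusters 1, 4 and 5, at 24.2 and 7.36 CPM. Fcna did not follow, and was lowest in cluster 6, at 1261 CPM. It was at 3509 and 3106 CPM in clusters 2 and 3, and 1489 to 1835 CPM in clusters 1, 4 and 5. Marco, Cd5l and Fcna are genes of the rule. The cells of cluster 6 had a median of 13357 UMIs, against 10154.5 UMIs in clusters 2 and 3, and the part of depth in these differences was not tested. The mesothelial markers summed to 0 CPM in cluster 6. The protocol states that fat around the pancreas was trimmed, and cells from the surface of the organ cannot be told apart here from cells inside it.

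**Figure D4:**
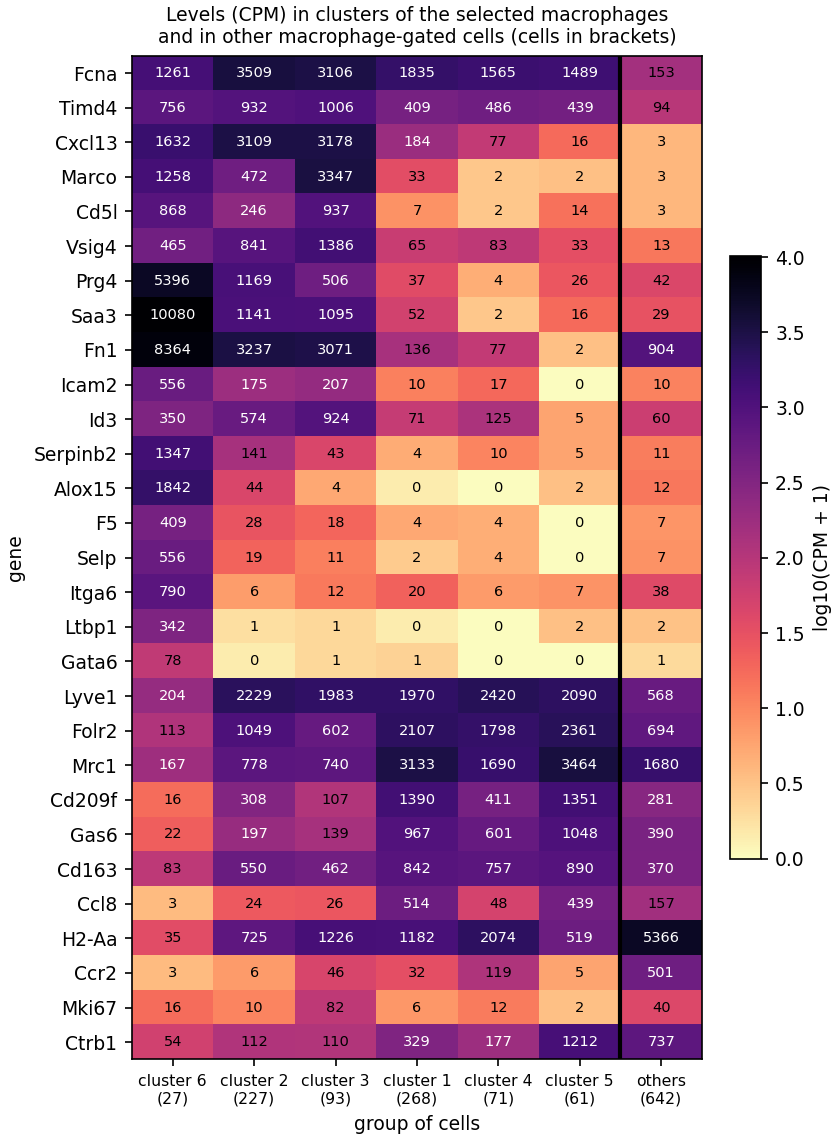
Level in CPM (numbers, and colour as log10 of CPM + 1) of each gene (rows) in the 6 clusters of selected macrophages and in the 642 other macrophage-gated cells (columns, number of cells in brackets). Cluster 6 holds Saa3 at 10080 CPM with Gata6 and Ltbp1, clusters 2 and 3 hold Cxcl13 at 3109 and 3178 CPM, and clusters 1, 4 and 5 hold Folr2 and Mrc1 with Cxcl13 at 184 CPM or less.

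Clusters 1, 4 and 5 differed among themselves in smaller ways. Cluster 1 was led by Cd209a, Cyr61, Ccl8, Cd209d and Rsad2. Ccl8, a chemokine of tissue macrophages, was at 514 CPM in cluster 1, against 62.8 CPM in the other members. The genes of the Cd209 family are close copies of each other, so counts of single members are uncertain. Cluster 4 was led by Ccnd2, Ccr2, Creb5, S100a6 and Hspb1, and Ccr2 was at 119 CPM there, against 20.5 CPM in the other members, found in 11.3% of its cells. Cluster 5 was led by transcripts of acinar cells, the enzyme-making cells of the pancreas, with Pla2g1b, Try5, Cpa1, Zg16 and Clps at the top. Its 12-gene acinar sum was 6377 CPM, against 274 to 1753 CPM in the remaining clusters, and the part of this RNA in its separation was not tested. The sum of 18 early response genes, which dissociation can induce, was 39391 CPM in cluster 1, 32124 CPM in cluster 4 and 11779 CPM in cluster 5. In clusters 2, 3 and 6 it was 20069, 18370 and 28324 CPM. The part of these genes in the separation of the clusters was not tested either.

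Set against the other macrophage-gated cells of the library, 3213 genes reached 50 CPM in either sum. Of these, 160 (4.98%) were at least 2-fold higher in the Fcna Timd4 macrophages and 98 (3.05%) at least 2-fold lower. The median fold of all 3213 genes was 0.08 on the log2 scale. Because the groups were cut on 5 of these genes, the counts and folds are a description, and nothing is read from how they compare with the 4.98% and 3.05%. Lists of genes are given as counts among their measured members, with 50 CPM in either sum.

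The 12 genes with the highest folds were Cxcl13, Marco, Cd5l, Slc7a2, Pcolce2, Vsig4, Saa3, Hal, Ifi205, Padi4, Prg4 and Fcna. Cxcl13, Marco, Cd5l and Fcna are genes of the rule. Cxcl13 was at 1672 CPM in the Fcna Timd4 macrophages and 3.04 CPM in the others, a ratio of 550-fold (interval 333 to 982). Vsig4 was at 533 CPM against 12.8 CPM, 41.8-fold (32.6 to 54.5), and Saa3 at 1097 CPM against 28.8 CPM, 38.1-fold (32.3 to 45.3). Slc7a2 was at 102.5 CPM against 1.82 CPM, 56.2-fold (29.4 to 123), and found in 34.1% of the cells against 1.40%. Padi4, which converts arginine in proteins to citrulline, was at 69.5 CPM against 3.65 CPM, 19.0-fold (11.9 to 32.4). Ifi205 belongs to an interferon-induced family of close copies, so its 23.7-fold ratio is uncertain. Pcolce2, a helper of collagen processing, was at 55.5 CPM against 1.22 CPM, below the 457 CPM of fibroblast-gated cells.

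**Figure D5:**
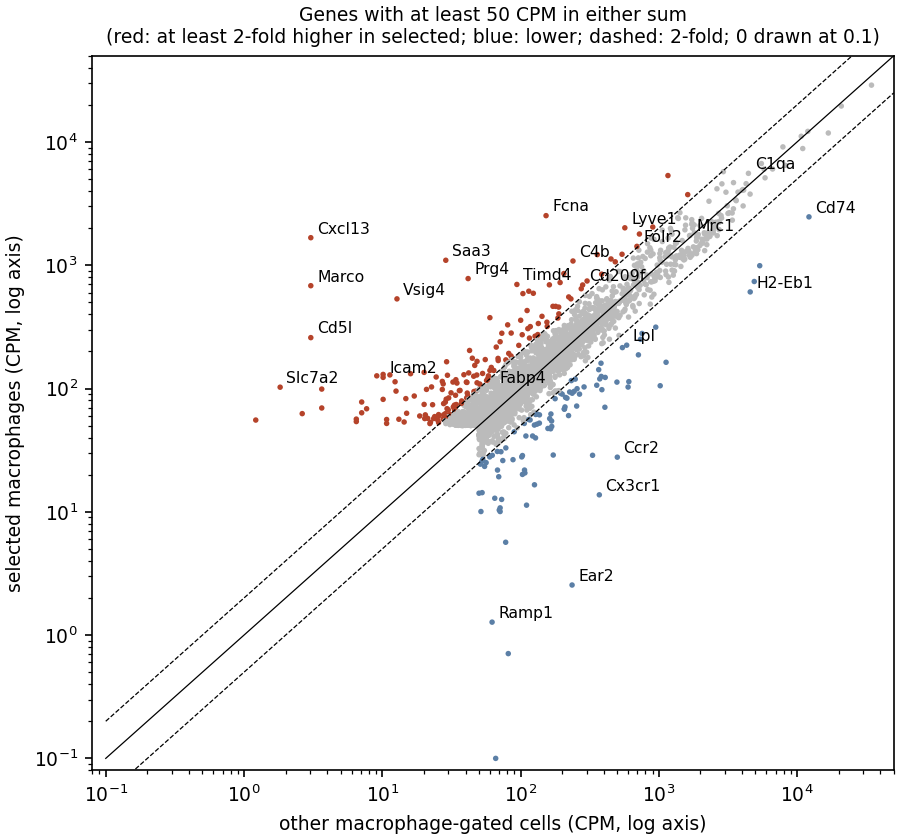
Level of each gene with at least 50 CPM in either sum, in the 747 selected macrophages (vertical log axis, CPM) and in the 642 other macrophage-gated cells (horizontal log axis, CPM), with dashed lines at 2-fold and a value of 0 drawn at 0.1. The 160 red genes above the band include Cxcl13 at 1672 against 3.04 CPM, and the 98 blue genes below it include Ccr2 at 27.7 against 501 CPM.

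Most measured genes of the serous cavity list were higher. Of 18 genes, 9 were measured, 7 were at least 2-fold higher and none was lower, with a median log2 fold of 3.20. The 7 were Saa3, Prg4, Icam2, Serpinb2, Alox15, Tgfb2 and Fn1. Icam2, an adhesion molecule of peritoneal macrophages, was at 123 CPM in the Fcna Timd4 macrophages against 10.1 CPM in the others, 12.2-fold (9.13 to 16.5), and was found in 30.1% of cells against 4.67%. Tgfb2, a growth factor, was at 56.5 CPM against 6.49 CPM. Gata6 was at 4.81 CPM against 1.01 CPM, both under the minimum. Part of this group depended on cluster 6. Without its 27 cells the log2 fold of Alox15 was 0.49 in place of 3.20, that of Fn1 0.90 in place of 1.17, and both were under 2-fold. Saa3, Prg4, Icam2, Serpinb2 and Tgfb2 stayed at least 2-fold higher without those cells. Fn1 moved further without clusters 2 and 3, to a log2 fold of 0.08. Fn1 also depended on the kind of cell it was set against, at 2041 CPM in the members, 157 CPM in the others with a sum of at least 10 over Cd209f, Folr2 and Mrc1, and 2047 CPM in the 206 others below that sum.

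A minority of vessel-associated macrophage genes were called, with smaller ratios. All 15 genes of that list were measured, 5 were at least 2-fold higher and none lower, with a median log2 fold of 0.63. Lyve1 was at 2011 CPM in the Fcna Timd4 macrophages against 568 CPM in the others, 3.54-fold (3.402 to 3.69), and found in 94.0% of cells against 50.6%. Folr2 was at 1422 CPM against 694 CPM, and Cd209f at 691 CPM against 281 CPM. Mrc1, at 1742 CPM against 1680 CPM, and Cd163, at 645 CPM against 370 CPM, did not reach 2-fold. A sum of at least 10 over Cd209f, Folr2 and Mrc1 was reached by 89.6% of the members (interval 87.1 to 91.7%) and 67.9% of the others (64.2 to 71.5%). Against those 436 others alone, Lyve1 was still more than 2-fold higher, at 2011 CPM against 928 CPM. Folr2 was not, at 1422 CPM against 1126 CPM, and neither was Cd209f, at 691 CPM against 465 CPM. Both are genes of the sum that chose those 436 cells, so their smaller ratios follow in part from the split.

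Recognition and complement genes gave several higher calls and no lower call among complement genes. Of 19 complement genes 13 were measured, and Vsig4, Fcna, C3, C4b and Cfp were at least 2-fold higher, of which Fcna was fixed by the rule. C4b, a component of the classical pathway, was at 1082 CPM in the Fcna Timd4 macrophages against 239 CPM in the others, 4.52-fold (4.25 to 4.81). C3, the central component, was at 132 CPM against 16.0 CPM, 8.24-fold (6.54 to 10.5). Cfp, properdin of the alternative pathway, was at 1066 CPM against 484 CPM. Without clusters 2 and 3, C3 and Cfp were under 2-fold, with log2 folds of 0.96 and 0.81. Among 10 measured scavenger receptors Msr1 was higher, at 429 CPM against 111 CPM, and Lgals3, a lectin that binds galactosides, was lower, at 280 CPM against 756 CPM. Msr1 was under 2-fold without clusters 2 and 3, with a log2 fold of 0.93, and Lgals3 turned to 0.38 against the others with a sum of at least 10 over Cd209f, Folr2 and Mrc1. Of 15 measured genes for the clearance of dying cells, none was higher and Itgb5 was lower, at 20.1 CPM against 103 CPM. Mertk, a receptor of that list, was at 122 CPM against 63.7 CPM, just under 2-fold.

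Secreted signals were mixed. Of 15 measured chemokines 4 were higher (Cxcl13, Cxcl1, Ccl24 and Ccl6) and 2 lower (Ccl12 and Cxcl16), and the call of Cxcl13 was fixed by the rule. Ccl24, which attracts eosinophils, was at 1124 CPM in the Fcna Timd4 macrophages against 451 CPM in the others. Cxcl1, which attracts neutrophils, was at 724 CPM against 193 CPM. Of 9 measured cytokines, Il1a (86.9 against 17.0 CPM) and the anti-inflammatory Il10 (154 against 46.6 CPM) were higher, and Il1rn (10.3 against 70.2 CPM) and Il1b (160 against 382 CPM) lower. Of 10 measured growth factors, Tgfb2, Gdf15, Bmp2 and Osm were higher. Bmp2, which macrophages of the gut wall pass to neurons, was at 464 CPM against 179 CPM. Without clusters 2 and 3 the log2 folds of Cxcl1, Il10, Ccl6, Bmp2 and Osm were 1.00, 0.85, 0.69, 0.99 and 0.87, each under 2-fold. Against the others with a sum of at least 10 over Cd209f, Folr2 and Mrc1, Ccl24 and Bmp2 had log2 folds of 0.75 and 0.71, and Il1b turned to 0.22. At a selection sum of at least 20 the log2 fold of Ccl24 was 0.79. None of the 18 early response genes was called, with sums of 27004 CPM in the members and 23947 CPM in the others.

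The remaining lists gave few calls. Of 11 measured pattern recognition genes, Clec4d (203.5 CPM in the Fcna Timd4 macrophages against 42.8 CPM in the others) and Clec4e were higher and Clec4a2 lower. Of 17 measured transcription factors, Id3 and Cebpb (1227 against 542 CPM) were higher and Runx1 (119 against 249 CPM) lower. Among 14 measured integrins and adhesion genes, Icam2 and Itgb2 were higher and Itgb5, Cd9 and Alcam lower. Of 6 measured Fc receptor genes, Fcgrt, the neonatal Fc receptor that recycles antibodies, was higher, at 846 against 386 CPM, and Fcrls was lower, at 187.5 against 712 CPM. Serpinb2, Thbd and Plaur were higher of 5 measured coagulation and fibrinolysis genes, Tfrc, the transferrin receptor, of 12 iron genes, Ctsl of 18 lysosome genes and Rsad2 of 6 interferon genes. Without clusters 2 and 3 the calls of Clec4d, Clec4e, Clec4a2, Cebpb, Runx1, Itgb2, Plaur and Id3 were lost. Against the others with a sum of at least 10 over Cd209f, Folr2 and Mrc1, those of Fcgrt, Tfrc, Ctsl, Rsad2, Cd9 and Alcam were lost.

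MHC class II genes were lower throughout the measured list. All 7 measured genes of 9 were at least 2-fold lower in the Fcna Timd4 macrophages, with a median log2 fold of -2.44. H2-Aa was at 991 CPM in the Fcna Timd4 macrophages against 5366 CPM in the others, 5.42-fold lower (5.28 to 5.56). H2-Eb1 was at 607 CPM against 4580 CPM, the invariant chain Cd74 at 2467 CPM against 12185 CPM, and the class II transactivator Ciita at 10.1 CPM against 51.7 CPM. These genes were lower than in both kinds of other cells, with H2-Aa at 3880 CPM in the others with a sum of at least 10 over Cd209f, Folr2 and Mrc1 and 7640 CPM in the others below it. Per 10000 UMIs, H2-Aa had a median of 1.06 in the members and 48.7 in the others, with 90th percentiles of 35.8 and 117.

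Of 12 monocyte genes 4 were measured, of which Cx3cr1 and Ccr2 were lower and Thbs1 higher. Thbs1 was at 176 CPM in the Fcna Timd4 macrophages against 44.8 CPM in the others, and without cluster 6 its log2 fold was 0.99 in place of 1.97. The 12 genes with the lowest folds were Ear2, Ramp1, Cx3cr1, Ccr2, Olfm1, Tnip3, Basp1, Cd52, Clec4b1, H2-Eb1, Cytip and Lyz1. Cx3cr1, the fractalkine receptor, was at 13.7 CPM in the Fcna Timd4 macrophages against 371 CPM in the others, 27.0-fold lower (22.0 to 33.5). Ccr2 was at 27.7 CPM against 501 CPM, 18.1-fold lower (15.6 to 21.0), and was found in 4.28% of cells against 37.5%. Cx3cr1 was at a like level in both kinds of other cells, 360 and 388 CPM, whereas Ccr2 was at 161 CPM in those with a sum of at least 10 over Cd209f, Folr2 and Mrc1 and 1020 CPM in those below it. Ear2 and Lyz1 have close copies in the genome, so their counts are uncertain. Against the others with a sum of at least 10 over Cd209f, Folr2 and Mrc1, the calls of Cytip and Lyz1 were lost, with log2 folds of -0.55 and -0.59. Ly6c2, a gene of classical monocytes, was at 0 CPM in the members and 0.608 CPM in the others.

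Defining markers of some other organs' macrophages were at 0. Of the Kupffer cell list, Clec4f and Cd207 were at 0 in the members, 3 of 11 genes were measured and Id3 was higher, at 375 CPM against 60.0 CPM. The 11 genes, Id3 included, summed to 855 CPM in the Fcna Timd4 macrophages against 426 CPM in the others. Without clusters 2 and 3 the log2 fold of Id3 was 0.73 in place of 2.65. The splenic list of 9 genes summed to 1229 CPM in the Fcna Timd4 macrophages against 796 CPM in the others. Of its 4 measured genes Cd209b, a lectin of marginal zone macrophages, was higher, at 77.6 CPM against 28.6 CPM, though not at least 2-fold against the others with a sum of at least 10 over Cd209f, Folr2 and Mrc1. Spic, the factor of red pulp macrophages, was under the minimum, at 17.3 CPM against 13.4 CPM. Of the alveolar macrophage list, which summed to 11.75 CPM against 31.83 CPM, Siglecf, Ear1, Krt79 and Chil3 were at 0. The microglial list summed to 162 CPM against 250 CPM, with Sall1 at 0. Of its 2 measured genes Gpr34 was lower, a call that was lost without clusters 2 and 3. Clec4f, Cd207, Ear1 and Krt79 were also at 0 in the others with Xist only and in those with a Y-linked transcript only. Genes of lipid handling gave no higher call among 13 measured and 3 lower, with Lpl at 225 CPM against 586 CPM, Trem2 at 93.7 against 227 CPM and Fabp5 at 33.0 against 78.3 CPM. Lpl was not lower than in the others with a sum of at least 10 over Cd209f, Folr2 and Mrc1, where it was at 237 CPM, and Fabp5 had a log2 fold of 0.53 against those cells. Fabp4, whose promoter drives Cre in these mice, was at 103 CPM against 63.7 CPM and found in 25.4% of cells against 15.9%. After thinning to 4300 UMIs the shares were 17.1% and 11.1%, with 9.23% in fibroblast-gated cells. Among cells with Xist only Fabp4 was at 95.2 CPM in members against 43.8 CPM in others. Among cells with a Y-linked transcript only it did not differ, at 94.1 CPM in each. Cluster 6 held it at 688 CPM, against 11.5 to 115 CPM in the remaining clusters.

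Acinar transcripts were lower in the selected cells too. Of 12 acinar genes 10 were measured and all 10 were at least 2-fold lower, with a sum of 1266 CPM in the Fcna Timd4 macrophages and 3704 CPM in the others. Ctrb1, a chymotrypsinogen, was at 250.7 CPM in the Fcna Timd4 macrophages, 737 CPM in the others, and was found in 65.5% of cells against 84.4%. Within the members the acinar sum was 493 CPM in clusters 2 and 3 and 2191 CPM in clusters 1, 4 and 5. The part of this RNA in the lower calls was not tested.

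Xist and Y-linked transcripts mark cells of different mice, and the level of H2-Aa, which the rule did not use, was lower in members within each kind. Xist alone was found in 318 members and a Y-linked transcript alone in 311, so that 50.6% of the members with 1 kind carried Xist, against 51.3% of the others, 39.0% of fibroblast-gated and 42.3% of endothelial-gated cells. H2-Aa was at 1193 CPM in members against 5832 CPM in others among cells with Xist only, and at 757 CPM against 5102 CPM among cells with a Y-linked transcript only. Marco was at 1012 CPM in members with Xist only and 342 CPM in members with a Y-linked transcript only, and Cxcl13 at 2308 and 1240 CPM. Some calls were not held within each kind. Plaur, Fn1, Gdf15, Cfp, Osm, Clec4e, Itgb2, Runx1, Gpr34 and Cxcl16 were under 2-fold among cells with a Y-linked transcript only, and Rsad2, Osm, Folr2, Il1b and Lpl among cells with Xist only. How many mice were pooled is not given in the sources used here, so sex and mouse cannot be told apart.

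Few tumour cells met the rule. Of 2573 retained tumour cells 44 passed the macrophage gate and 4 of these also reached the selection sum, which is 9.09% (interval 2.53 to 21.7%), against 53.8% in the normal library. The tumour gate on PDPN, which the normal sort lacked, applied to those cells. Of the 4 cells, the first had 32 UMIs of Marco, 176 of Serpinb2 and 3 of Gata6, and the second had 135 UMIs of Prg4, 359 of Saa3 and 8 of Marco. The third had 56 UMIs of Fcna, 65 of Mrc1 and 15 of Cxcl13, and the fourth had 24 UMIs of Fcna and 12 of Lyve1. With 4 cells no comparison was made.

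The 44 macrophage-gated tumour cells as a whole differed from the normal members in opposite ways for different genes. The tumour cells had a median of 8042 UMIs, and 1 UMI was 2.31 CPM of their sum. Fcna was at 251.4 CPM in the tumour cells and 2524 CPM in the normal members, Timd4 at 16.1 and 698 CPM, and Lyve1 at 106 and 2011 CPM. Arg1, the arginine-degrading enzyme that macrophages express in tumours, was at 3842 CPM in the tumour cells and 21.1 CPM in the normal members, and Thbs1, thrombospondin 1, at 3042 and 176 CPM. Slc7a2 was at 814 CPM in the tumour cells and 102.5 CPM in the normal members. Serpinb2 was at 719.5 and 129 CPM, but 176 and 79 of its 312 tumour UMIs came from 2 cells. Saa3 was at 1213 CPM in the tumour cells and 1097 CPM in the normal members, but 359 of the 526 tumour UMIs came from 1 cell. H2-Aa was higher in the tumour cells, at 2075 CPM against 991 CPM. Neutrophil genes were also present in the tumour sum, at 8108 CPM over the 6-gene list against 44.6 CPM in the normal members, with S100a9 at 4478 CPM and 0, and their part in these values was not tested.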

How the data were processed

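Cell Ranger 3.1.0 and the mm10 build are named in the submitters' processing notes. The authors deposited whole-number UMI counts for each of 27998 genes in each barcode, without normalization, with 5437 barcodes and 36675424 UMIs in the normal and 2942 barcodes and 33285044 UMIs in the tumour library. The libraries shared 4 barcodes.

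The members, gene lists and thresholds were chosen with earlier results of these data known. Counts were summed over the cells of a group and scaled to CPM (numpy 2.4.6). Ratios have exact 95% intervals for 2 Poisson counts and shares exact Clopper-Pearson intervals (scipy 1.17.1). A call was a ratio of at least 2 with at least 50 CPM in either sum, and for a sum of 0 counts a floor of 3 counts was used. UMIs collapse PCR copies, and intervals cover counting error only. Thinning drew UMIs without replacement. Clustering used scanpy 1.11.5 and igraph 0.11.9 with 2000 variable genes, 20 principal components, 15 neighbours and a Leiden resolution of 0.5. Doublets were scored with Scrublet and kept; their removal was an alternative. TMM scaling came from edgeR 4.0.16, with no test.

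Named genes were the rule genes, markers and Fabp4, the 12 highest and 12 lowest called ratios with a UMI in at least 10% of cells of the higher group (leaving out mitochondrial, ribosomal, sex-linked, unnamed and other-type genes), list members called or at the ends of a list, and 5 leading genes per cluster. Cluster or tumour genes beyond that rule, such as Itgal, Nr1h3, Ltbp1 and Maf, were named after their values were seen or for their known role. Of 448 list genes 444 were found. The calculation was checked on simulated counts. Sequences are from RefSeq.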

Additional observations from a re-analysis of the deposited data

How the results depend on the processing

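The number of members stayed within 1.5 times under each alternative threshold, filter and doublet setting. Counts of genes at least 2-fold apart moved most with the minimum level. At 20 CPM 245 were higher and 218 lower, so that 52.9% of calls were higher, against 62.0% as reported. With no minimum 1528 were higher and 2388 lower, and 39.0% of calls were higher. Against the 206 others under 10 for Cd209f, Folr2 and Mrc1, 380 were higher and 217 lower. Without clusters 2 and 3 of the members, chosen after seeing the data, 96 were higher and the higher share was 53.6%. TMM and median ratio scaling moved the median log2 fold by 0.02 each.

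Of 86 called named genes, 42 stayed at least 2-fold apart in the same direction in all 20 settings and 44 did not. Reversed log2 folds were -0.78 for Rsad2 at a selection sum of at least 20, -0.68 for Plaur without clusters 2 and 3, -0.005 for Fn1, 0.17 for Gpr34 and 1.503 for Ccl12 against the others under 10 for Cd209f, Folr2 and Mrc1, and 0.53 for Fabp5, 0.22 for Il1b, 0.022 for Alcam and 0.38 for Lgals3 against those of at least 10. The cause was not tested.

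Shares of members with a UMI depend on depth. Without thinning they were 24.4% for Marco, 91.3% for Timd4 and 28.0% for Cd5l. At 1000 UMIs they were 14.2% for Marco, 44.7% for Timd4, 10.7% for Cd5l, 83.4% for Fcna, 20.9% for Vsig4, 27.4% for Cxcl13 and 23.7% for Prg4. No paired analysis was possible because each group is 1 library.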
